A study of Mus musculus with 4 samples.

Results

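The genes described here are the FoxO transcription factors Foxo1, Foxo3 and Foxo4 and 7 genes known to respond to them or to act on them, Ccng2, Sesn1, Pik3ip1, Txnip, Cdkn1b, Bcl6 and Sgk1. They were found by NCBI gene identifier, 10 of the 15935 genes listed in any library, and every one of them was listed in all 4 libraries. The genes were selected on their FPKM in these same 4 libraries, with earlier results of the LPS and genotype comparisons known, so what follows describes these values and tests nothing. Total RNA came from macrophages that had been grown out of the marrow of adult C57BL/6 mice over 5 days, with M-CSF, a macrophage growth factor, supplied as conditioned medium. KO cells (genotype EZH2-/-) came from mice with floxed Ezh2 and Cre recombinase under the lysozyme M promoter (ezh2f/f lysmcre), and WT cells from wild-type mice. Ezh2 encodes the main methyltransferase of Polycomb repressive complex 2. The 4 libraries, 1 per group, were KO LPS (lipopolysaccharide, a ligand of Toll-like receptor 4, for 2 h), KO NT (non-treated), WT LPS and WT NT. The Cre acts in myeloid cells, so cells of other kinds in a culture keep Ezh2, and the labels do not say how many mice or cultures stand behind a library.

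FoxO factors are forkhead transcription factors that act downstream of growth factor receptors. When phosphatidylinositol 3-kinase (PI3K) is active, the kinases AKT and SGK phosphorylate them and they leave the nucleus, so that genes they activate tend to be expressed when this signalling is low. Their known targets act in cell cycle arrest, in restraint of growth signalling, in redox control and in cell death, and Toll-like receptor 4 is one of the receptors that activate PI3K in macrophages. Activity of a FoxO protein depends on its phosphorylation and place in the cell, which messenger RNA levels do not show.

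Since each group is a single library, the differences described cannot be set against a spread between replicates, and no p-values were computed. Total expected counts were 5237782 in KO LPS, 5668826 in KO NT, 5635004 in WT LPS and 5678451 in WT NT. Intervals beside ratios of FPKM are exact 95% Clopper-Pearson intervals from the counts of both libraries. Such an interval accounts for counting error and nothing else, and PCR copies of 1 molecule make it too narrow. Ezh2 itself was at 1.29 FPKM in KO LPS, 2.06 in KO NT, 2.52 in WT LPS and 2.84 in WT NT. Those values rest on 18, 31, 38 and 43 counts in the same order. The KO libraries together held 0.628 times the WT share of counts (0.431 to 0.906). Over both states together, the transcript was thus lower in KO and not absent. All 12 macrophage markers examined were listed, and they summed to 6304 FPKM in KO LPS, 6715 in KO NT, 5891 in WT LPS and 5766 in WT NT. The sum of 10 neutrophil markers was higher in the KO libraries, at 563 FPKM in KO LPS, 644 in KO NT, 412 in WT LPS and 378 in WT NT. S100a8 and S100a9 made up most of it, at 219 and 282 FPKM in KO NT and 122 and 156 in WT NT. Not every marker was higher in KO. Mpo was at 3.56 FPKM in KO NT and 4.24 in WT NT, Ly6g was lower in KO in both states, and Cxcr2 was near level. The fibroblast and stromal list of 7 genes summed to 3.59 FPKM in KO LPS, 3.69 in KO NT, 7.07 in WT LPS and 6.65 in WT NT. The T and NK cell list of 8 genes summed to 10.7 FPKM in KO LPS, 13.7 in KO NT, 6.71 in WT LPS and 8.67 in WT NT. Most of it came from Cd4 (9.03, 12.4, 5.82 and 7.70 FPKM in the same order). The other 7 genes were under 1 FPKM in every library. Of these, Cd3e, Cd3g and Ncr1 were at 0 in all 4 libraries, whereas Cd3d and Cd8a had a few counts in each. The part of other cells in any result below was not tested, and in bulk RNA fewer cells of a type and less RNA per cell cannot be told apart.

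A forkhead recognition sequence lies before the annotated start of Txnip and just after 1 of the annotated starts of Sesn1. RefSeq windows of 250 bases before to 50 bases after each annotated start (GRCm38.p6) were searched on both strands for the FoxO core GTAAACA and for the shorter TAAACA that it contains. Windows were found for 9 of the 10 genes, all but Foxo4, 16 windows in all, and the core lay in 1 window each of Txnip and Sesn1. Of all 32851 windows of the table, 3.65% held the core, and of the 11363 windows of genes of at least 1 FPKM in some library, 2.60%. The shorter sequence was found in 13.4% of all windows, in 8.80% of those of genes of at least 1 FPKM and, beside Txnip and Sesn1, at Cdkn1b. The sequences below come from every window of these genes that held a match. After LPS, Txnip and Sesn1 were far below their untreated level, but so was Foxo3, whose window held neither sequence. Cdkn1b, a classic target, was near the median gene. A link between a match and the LPS response was not tested. Capitals mark the core or, for Cdkn1b, the shorter sequence, and TGTTTAC and TGTTTA are the same motifs read on the other strand.
Txnip, chr3:96557707-96557956, plus strand, the 250 bases before the start: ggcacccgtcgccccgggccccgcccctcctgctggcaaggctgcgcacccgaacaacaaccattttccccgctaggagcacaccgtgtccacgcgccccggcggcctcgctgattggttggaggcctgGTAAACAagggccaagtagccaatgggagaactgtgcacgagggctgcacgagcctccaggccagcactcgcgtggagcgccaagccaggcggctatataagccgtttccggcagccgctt
Sesn1, chr10:41810584-41810613, plus strand, 30 bases around the motif: agaaccttctacTGTTTACcagccttttgg
Cdkn1b, chr6:134920372-134920401, plus strand, 30 bases around the motif: gagctcctcctcTGTTTAaatagacttgca
In Txnip the core begins 121 bases before the start. In Sesn1, which has 2 annotated starts, it begins at base 23 of the transcript from the first start, counted from 1. In Cdkn1b the shorter sequence begins 17 bases before the start. A match is a description of the letters and not evidence of binding, and a window without one says nothing of the factor.

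Before stimulation the genes covered a range of levels, and FPKM, being per length, allows them to be set side by side. Txnip was highest, at 126 FPKM in KO NT and 116 in WT NT. In WT NT it was followed by Bcl6 (39.9 FPKM), Sesn1 (38.3) and Sgk1 (34.1), of which no neighbouring pair differed beyond counting error. Next in WT NT were Cdkn1b (12.9), Foxo4 (9.98), Foxo3 (9.78) and Ccng2 (8.05), and within the last 3 the neighbours did not differ beyond counting error either. Foxo1 stood at 2.04 and Pik3ip1 at 0.54 FPKM in WT NT. After LPS the order was another one in both genotypes. Sgk1 was now highest (42.0 FPKM in KO LPS and 111 in WT LPS) and Ccng2 second (37.6 in KO LPS and 70.7 in WT LPS), while Sesn1 stood sixth. In KO LPS, Sgk1 and Ccng2 did not differ beyond counting error (ratio 1.12, 0.989 to 1.27).

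**Figure D1:**
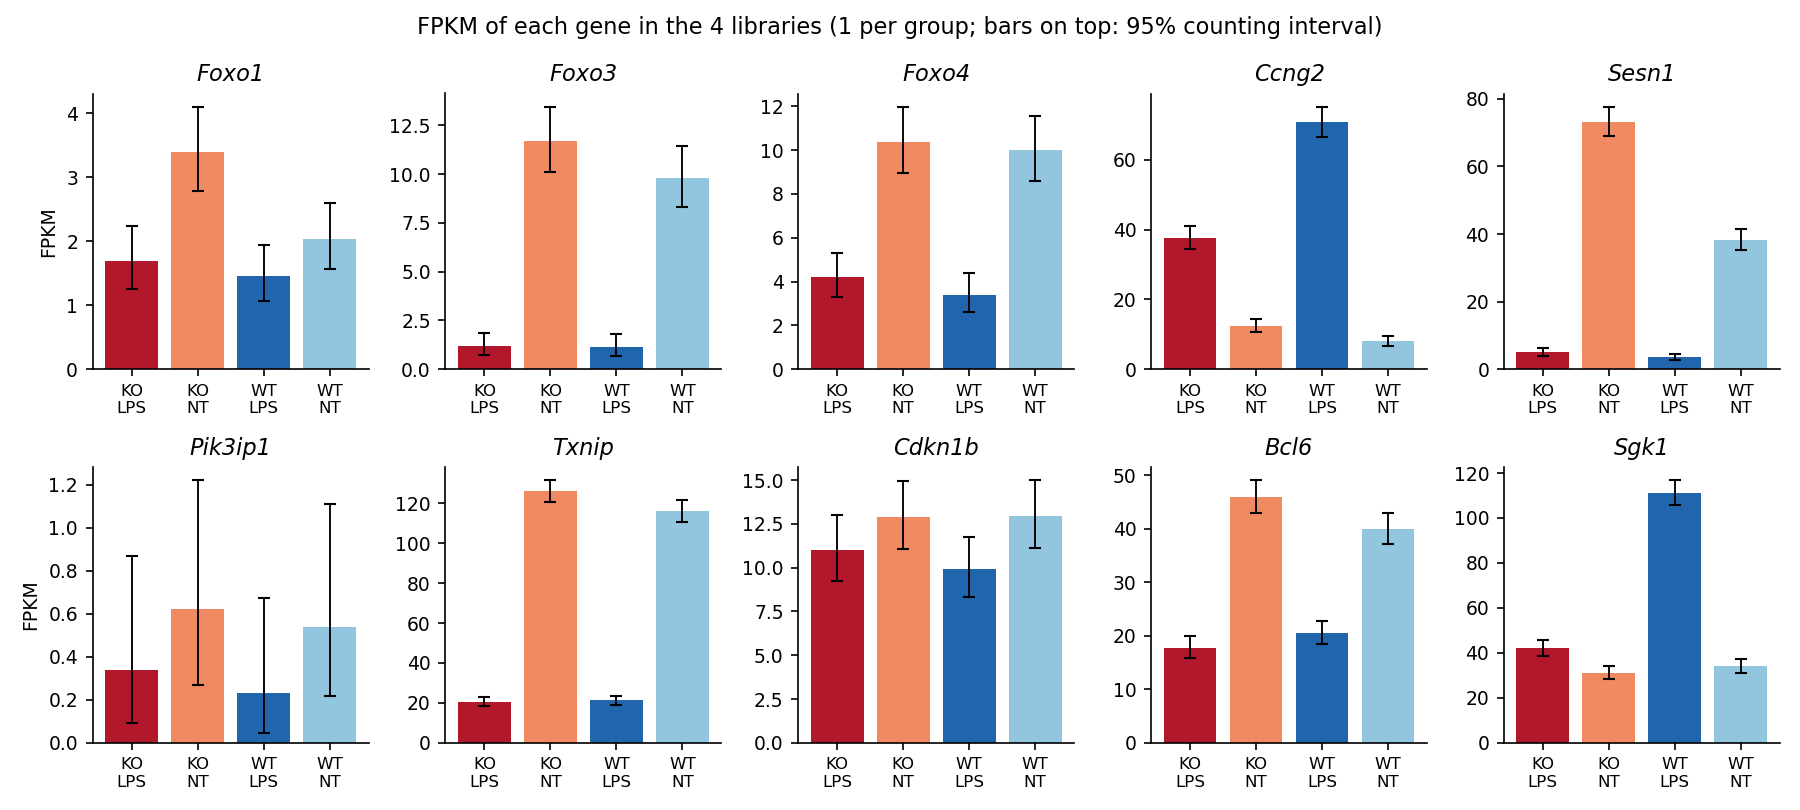
FPKM of the 10 genes (vertical axes, each on its own scale from 0) in KO LPS, KO NT, WT LPS and WT NT, 1 library each; the lines on the bars are exact 95% Poisson intervals of the counts. Sesn1, Txnip and Foxo3 are low in both LPS libraries, Ccng2 is high in both, and Sgk1 stands out in WT LPS at 111 FPKM.

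Of the FoxO factors, Foxo3 was furthest below its untreated level. Coordinates here and below are those of RefSeq on GRCm38.p6. Foxo3 (gene identifier 56484, chromosome 10 from 42181845 to 42276695), the family member tied to cell death and stress resistance, had 1.19 FPKM in KO LPS against 11.7 in KO NT, and 1.16 in WT LPS against 9.78 in WT NT. Those values rest on 18, 192, 19 and 161 counts. The ratios for LPS were 0.102 in KO (0.0591 to 0.165) and 0.119 in WT (0.0696 to 0.191). Foxo4 (gene identifier 54601, chromosome X from 101254261 to 101260873) had 4.21 FPKM in KO LPS against 10.4 in KO NT, and 3.41 in WT LPS against 9.98 in WT NT. The ratios were 0.406 in KO (0.304 to 0.536) and 0.342 in WT (0.251 to 0.459). Foxo1 (gene identifier 56458, chromosome 3 from 52268337 to 52350109), known in macrophages for promoting Toll-like receptor expression, had 1.70 FPKM in KO LPS against 3.40 in KO NT, and 1.46 in WT LPS against 2.04 in WT NT. KO NT was the one high library, with 108 counts against 46 to 65 in the other 3. The ratio for LPS was 0.5 in KO (0.35 to 0.705), and in WT 0.716 with an interval that included 1 (0.480 to 1.06). Foxo6, the remaining family member, was listed in no library.

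The level after LPS needs a yardstick, because the bulk of genes was lower too. On the scale of log2 of (FPKM + 1) over (FPKM + 1), over genes of at least 1 FPKM in 1 of the libraries compared, the median gene was at -0.42 in KO and -0.46 in WT. At least 2-fold apart on that scale is the rule for calling a gene higher or lower here. By that rule 21.7% of the 11069 genes compared in KO differed with LPS, 15.1% being lower and 6.61% higher. In WT 23.6% of 10972 genes differed, 17.2% being lower and 6.41% higher. With median-ratio scaling of the libraries, the median gene was at -0.03 in both, and the calls became 1073 higher and 752 lower in KO, and 1050 higher and 825 lower in WT, against 732 and 1668 in KO and 703 and 1887 in WT as deposited. Of the 10 genes, 9 reached 1 FPKM and 5 of the 10 were at least 2-fold lower in KO with LPS (Sesn1, Txnip, Foxo3, Bcl6 and Foxo4) and 1 higher (Ccng2). In WT, 4 were lower (Sesn1, Txnip, Foxo3 and Foxo4) and 2 higher (Ccng2 and Sgk1). The genes were chosen with this contrast known, so these counts describe the choice as much as the cells. Foxo4 in both genotypes, and Bcl6 in KO, were past 2-fold as deposited but not with median-ratio scaling, where Foxo4 was at -0.76 in KO and -0.91 in WT and Bcl6 at -0.91 in KO.

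**Figure D2:**
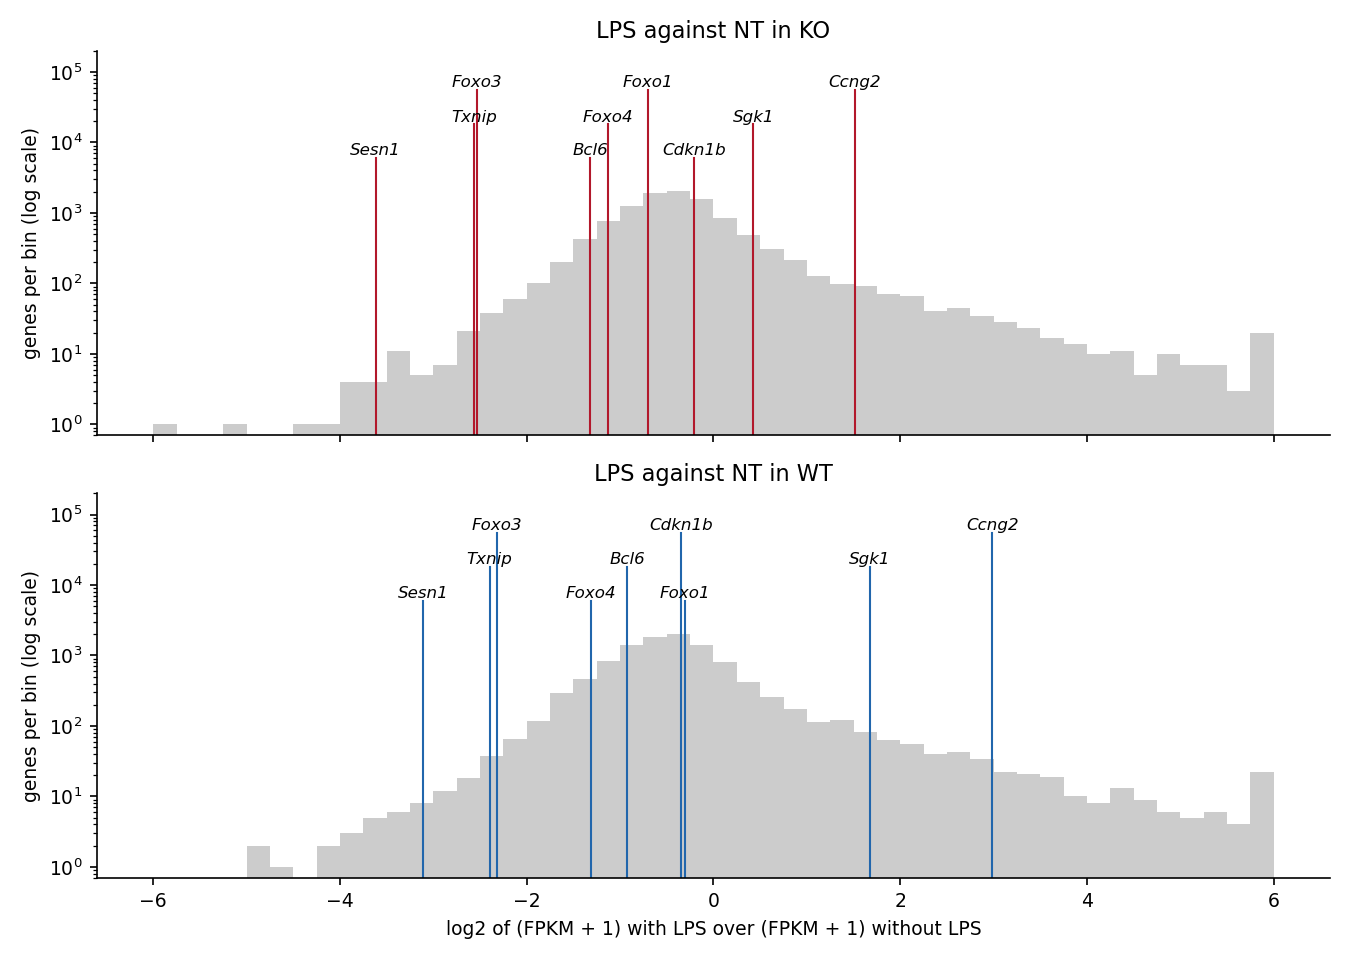
Number of genes (vertical axis, log scale) by log2 fold of FPKM + 1 with LPS over without LPS (horizontal axis, bins of 0.25) in KO above and WT below, with the 9 genes that reached 1 FPKM marked by lines; the end bins also hold all genes beyond them. Sesn1, Txnip and Foxo3 lie in the left tail, Ccng2 and, in WT, Sgk1 in the right one, and Foxo1 and Cdkn1b close to the bulk.

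Sesn1 had the lowest LPS fold of the set in both genotypes. The gene (gene identifier 140742, chromosome 10 from 41810574 to 41908436) encodes sestrin 1, a stress-induced protein that restrains the growth kinase complex mTORC1. Its level was 5.05 FPKM in KO LPS against 73.3 in KO NT, and 3.55 in WT LPS against 38.3 in WT NT. The LPS libraries were close to each other, and the NT libraries far above them and unequal. Ratios were 0.0689 in KO (0.0533 to 0.0878) and 0.0927 in WT (0.0688 to 0.123), from 70, 1098, 54 and 579 counts. Counted from the lowest log2 fold, Sesn1 held place 12 of 11069 genes in KO, at -3.62, and place 24 of 10972 in WT, at -3.11. Its relative Sesn2 was lower with LPS as well, at 2.42 FPKM in KO LPS against 9.66 in KO NT and 2.44 in WT LPS against 10.5 in WT NT, while Sesn3 stayed under 1 FPKM in every library.

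Txnip (gene identifier 56338, chromosome 3 from 96557957 to 96561857), which encodes the thioredoxin-interacting protein, an inhibitor of thioredoxin and of glucose uptake, was far below its untreated level in both genotypes. It had 20.5 FPKM in KO LPS against 126 in KO NT, and 21.2 in WT LPS against 116 in WT NT. The genotypes were close to each other in both states, and the ratios for LPS were 0.162 in KO (0.143 to 0.183) and 0.183 in WT (0.162 to 0.205). The long noncoding gene Gm15441 overlaps exons of Txnip on the other strand and showed the same order, with 5.77 FPKM in KO LPS against 37.4 in KO NT, and 6.92 in WT LPS against 32.2 in WT NT. Whether reads were counted by strand is not given in the sources used here, so reads of the overlapping part cannot be told apart between these genes. Annotated genes on the other strand also overlap Foxo1, Pik3ip1 and Bcl6, with the same limit. Of the other alpha-arrestin genes, the family of Txnip, Arrdc3 was at 0.51 FPKM in KO LPS against 5.08 in KO NT and 0.26 in WT LPS against 4.35 in WT NT, and Arrdc2 at 1.38 against 6.84 in KO and 1.13 against 7.05 in WT. Arrdc4 was past 2-fold on the higher side instead, at 12.04 FPKM in KO LPS against 4.74 in KO NT and 18.6 in WT LPS against 7.68 in WT NT, and Arrdc1 was not past 2-fold, with log2 folds of -0.51 in KO and -0.32 in WT. Counts of Arrdc4 were further apart than its FPKM, at 187 in KO LPS against 61 in KO NT and 312 in WT LPS against 79 in WT NT. Txnrd1, which encodes thioredoxin reductase, was higher with LPS too: 224 FPKM in KO LPS against 59.7 in KO NT, and 221 in WT LPS against 78.5 in WT NT.

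Bcl6 (gene identifier 12053, chromosome 16 from 23965050 to 23988866), a transcriptional repressor that limits inflammatory gene expression in macrophages, had 17.8 FPKM in KO LPS against 45.9 in KO NT, and 20.5 in WT LPS against 39.9 in WT NT. The ratio was 0.387 in KO (0.339 to 0.441) and 0.515 in WT (0.454 to 0.583). On the log2 scale this is -1.32 in KO, past 2-fold, and -0.92 in WT, just short of it. Of the genes of its corepressors, Bcor was at 40.5 FPKM in KO LPS against 4 in KO NT and 22.3 in WT LPS against 4.05 in WT NT, while Tbl1xr1 was past 2-fold lower in both genotypes, at 5.68 FPKM in KO LPS against 12.9 in KO NT and 4.84 in WT LPS against 12.1 in WT NT. The FPKM ratio of Bcor in WT, 5.51, lay below the interval from its counts (5.69 to 8.35, from 852 and 125 counts). FPKM also depends on the deposited length, which can differ between libraries.

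Cdkn1b differed little with LPS, and Pik3ip1 had too few counts to show a difference. Cdkn1b (gene identifier 12576, chromosome 6 from 134920401 to 134925525) encodes the cyclin-dependent kinase inhibitor p27, one of the best known FoxO targets. It had 11.0 FPKM in KO LPS against 12.9 in KO NT, and 9.94 in WT LPS against 12.9 in WT NT. The ratio was 0.855 in KO, with an interval that included 1 (0.679 to 1.07), and 0.768 in WT, with one below 1 (0.609 to 0.966). All 4 values lie within 1.30-fold of each other, and its log2 folds (-0.21 in KO and -0.35 in WT) stood slightly above those of the median gene. With median-ratio scaling they were positive, at 0.19 in KO and 0.09 in WT. Another gene of this family, Cdkn1a, also a FoxO and p53 target, was at 738 FPKM in KO LPS against 86.5 in KO NT and at 849 in WT LPS against 110 in WT NT. Pik3ip1 (gene identifier 216505, chromosome 11 from 3319241 to 3342971), an inhibitor of PI3K at the cell membrane, rested on 4, 8, 3 and 7 counts in KO LPS, KO NT, WT LPS and WT NT. Its level was 0.34 FPKM in KO LPS against 0.62 in KO NT, and 0.23 in WT LPS against 0.54 in WT NT, and the intervals of both ratios included 1 (0.121 to 2.05 in KO, 0.0711 to 1.87 in WT). It reached the 1 FPKM minimum in no comparison and was not called.

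Ccng2 and Sgk1 were the genes of the set above their untreated level. Ccng2 (gene identifier 12452, chromosome 5 from 93267573 to 93276231) encodes cyclin G2, an atypical cyclin linked to cell cycle arrest. It had 37.6 FPKM in KO LPS against 12.5 in KO NT, and 70.7 in WT LPS against 8.05 in WT NT. WT LPS was the highest library and WT NT the lowest. The ratio was 3.01 in KO (2.53 to 3.59) and 8.78 in WT (7.23 to 10.7). The paralog Ccng1, a p53 target, was below its untreated level instead, at 21.6 FPKM in KO LPS against 36.0 in KO NT and 19.3 in WT LPS against 41.0 in WT NT. Sgk1 (gene identifier 20393, chromosome 10 from 21882184 to 21999903), a kinase of the AKT group that phosphorylates FoxO factors and is induced by serum and glucocorticoids, had 42.0 FPKM in KO LPS against 31.0 in KO NT, and 111 in WT LPS against 34.1 in WT NT. WT LPS was the one high library. The ratio was 1.36 in KO (1.19 to 1.54), under 2-fold, and 3.26 in WT (2.94 to 3.62). Its relative Sgk3 was at 19.5 FPKM in KO LPS against 21.2 in KO NT and 13.7 in WT LPS against 17.2 in WT NT, and Sgk2 was listed in no library.

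**Figure D3:**
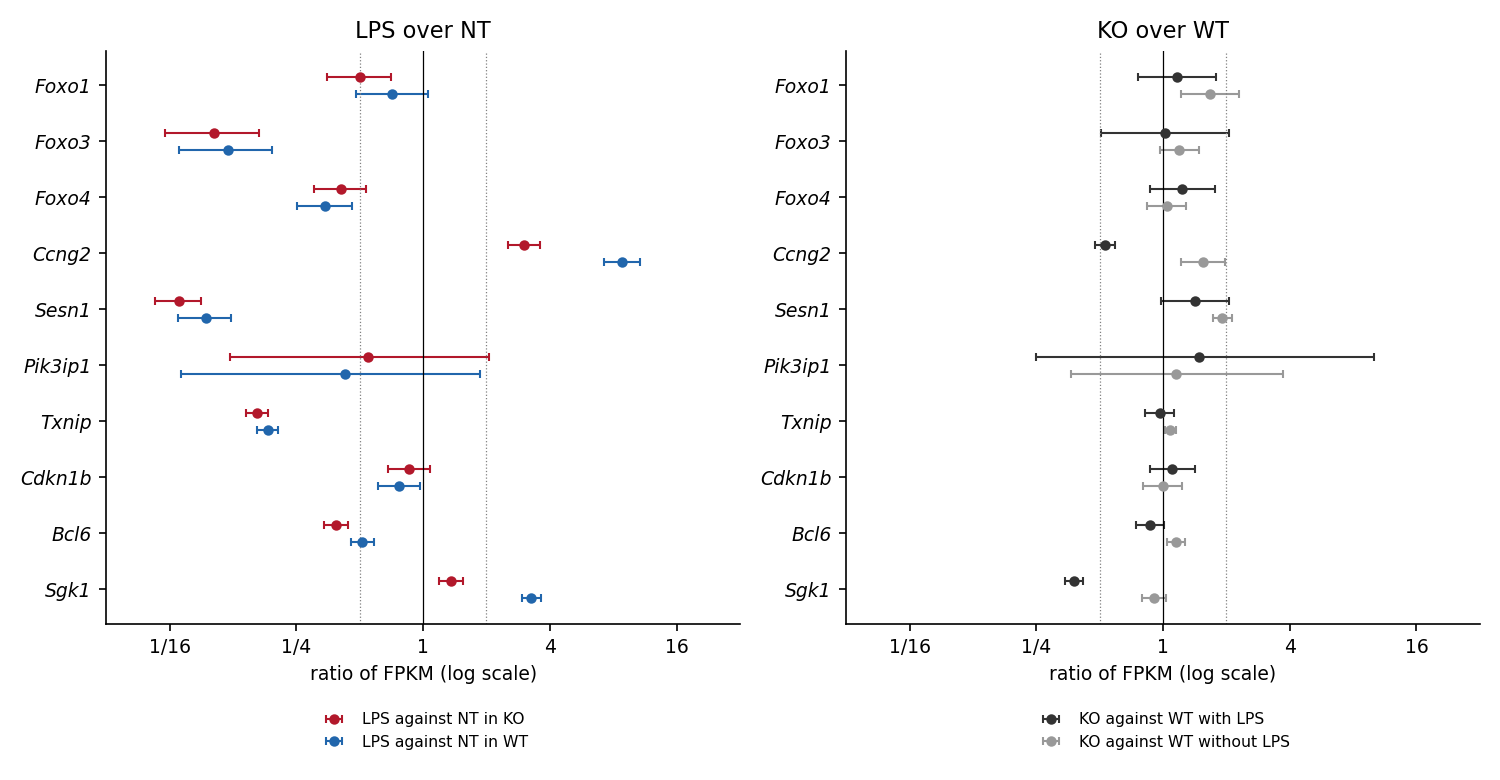
Ratio of FPKM (horizontal axes, log scale) of the 10 genes for LPS over NT in KO and WT (left) and for KO over WT with and without LPS (right), with exact 95% counting intervals; dotted lines mark 2-fold. For LPS, Ccng2 is at 3.01 in KO and 8.78 in WT; for KO over WT with LPS, Sgk1 (0.378) and Ccng2 (0.532) lie to the left of 1 with narrow intervals.

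Between the genotypes, none of the 10 genes was at least 2-fold apart without LPS, where 1.81% of 10990 genes were (0.883% lower and 0.928% higher). The KO values were the higher ones for 7 of the 9 genes that reached 1 FPKM, with a median log2 fold of 0.20 against 0.02 for all genes. Higher values in KO were common among all genes too. Of the 10990, 45.3% stood at or below Cdkn1b, whose log2 fold was -0.01. Sesn1 was furthest apart, at 73.3 FPKM in KO NT and 38.3 in WT NT, a ratio of 1.91 (1.73 to 2.12) that held place 129 of 10990 counted from the highest. Foxo1 (3.40 FPKM in KO NT and 2.04 in WT NT, ratio 1.67, 1.21 to 2.30) and Ccng2 (12.5 in KO NT and 8.05 in WT NT, ratio 1.55, 1.22 to 1.98) followed. Intervals of Bcl6 (ratio 1.15, 1.04 to 1.27) and Txnip (1.09, 1.02 to 1.16) also lay above 1, close to it. Those of Foxo3, Foxo4, Pik3ip1, Cdkn1b and Sgk1 included 1. The summed neutrophil markers differed in the same direction, 644 FPKM in KO NT and 378 in WT NT. The fibroblast and stromal list differed in the other, 3.69 FPKM in KO NT and 6.65 in WT NT. The part of either in these ratios was not tested.

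With LPS, Sgk1 was the only 1 of the 10 genes at least 2-fold apart between KO and WT, on the lower side, where 2.56% of 10375 genes were past 2-fold, 1.12% lower and 1.45% higher. It stood at 42.0 FPKM in KO LPS and 111 in WT LPS, a ratio of 0.378 (0.342 to 0.417), and at place 59 of 10375 counted from the lowest. Ccng2 came next, at 37.6 FPKM in KO LPS and 70.7 in WT LPS, a ratio of 0.532 (0.476 to 0.593), short of 2-fold on the log2 scale at -0.89. The intervals of the other 8 genes included 1, Sesn1 among them (5.05 FPKM in KO LPS and 3.55 in WT LPS, ratio 1.42, 0.983 to 2.07). The FoxO factors themselves were near level between the genotypes, with ratios of 1.16 for Foxo1 (0.764 to 1.78), 1.03 for Foxo3 (0.508 to 2.07) and 1.23 for Foxo4 (0.863 to 1.77). These intervals rest on 18 to 70 counts of each gene in an LPS library. Summed neutrophil markers were at 563 FPKM in KO LPS and 412 in WT LPS, and the fibroblast and stromal list at 3.59 and 7.07. The part of either in these ratios was not tested.

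The difference between the LPS responses of KO and WT was computed from all 4 libraries as the ratio of their count ratios, with an exact conditional 95% interval for counting error. For Ccng2 the KO response was 0.343 times the WT response (0.262 to 0.447), for Sgk1 0.415 times (0.352 to 0.489) and for Bcl6 0.751 times (0.626 to 0.901). For the other 7 genes the interval included 1, as for Sesn1 (0.734, 0.5 to 1.08) and Txnip (0.888, 0.748 to 1.05). On the log2 scale, KO minus WT, Ccng2 was at -1.47 and Sgk1 at -1.25, places 86 and 114 of 11320 counted from the lowest, where 1.42% of genes were past 2-fold on the lower side and 1.9% on the higher. Bcl6, at -0.40, held only place 1018, near Foxo1 at -0.40 and place 1009, which has fewer counts and an interval that included 1. Ccng2 had a higher level in KO than in WT without LPS and a lower one with LPS, whereas Sgk1 was near level without LPS. Summed neutrophil markers were higher in KO than in WT in both states, and the sum of the fibroblast and stromal list was lower. The part of either in these differences was not tested.

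In the pathway upstream of FoxO, genes past 2-fold with LPS lay on both sides. Of 21 measured genes around PI3K and AKT, 2 were at least 2-fold higher and 2 lower with LPS in KO, and 1 higher and 2 lower in WT. Past 2-fold in either direction were 21.7% of all genes in KO and 23.6% in WT, and counts this small are not set apart from those shares. The medians of the list were -0.17 in KO and -0.19 in WT, where all genes had -0.42 and -0.46. Pik3r5, a regulatory subunit of PI3K gamma, was at 279 FPKM in KO LPS against 102 in KO NT, and 225 in WT LPS against 106 in WT NT. Inpp5d, the phosphatase SHIP1 that removes the lipid product of PI3K, was at 33.8 FPKM in KO LPS against 71.7 in KO NT and at 28.4 in WT LPS against 64.8 in WT NT. Irs2, an insulin receptor substrate and itself a FoxO target, was at 7.88 FPKM in KO LPS against 1.66 in KO NT, and at 4.39 in WT LPS against 3.92 in WT NT. Between KO LPS and WT LPS none of the 21 genes was past 2-fold, and their median was 0.24 where all genes had 0.08. Of 18 FoxO partners and modifiers, 4 were at least 2-fold lower in each genotype with LPS and none higher, beside 15.1% of all genes lower in KO and 17.2% in WT. Skp2, a ubiquitin ligase subunit that targets FoxO1 and p27, was at 0.47 FPKM in KO LPS against 5.74 in KO NT and at 0.28 in WT LPS against 5.68 in WT NT, and Setd7, a methyltransferase, at 1.48 against 5.34 in KO and 1.1 against 4.62 in WT.

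Other genes known to respond to FoxO lay on both sides. Of 27 measured in KO, 7 were at least 2-fold higher and 3 lower with LPS, and of 26 in WT, 7 were higher and 5 lower. Of all genes, 6.61% were higher and 15.1% lower in KO, and 6.41% higher and 17.2% lower in WT, so the count on the higher side was above the share of all genes in both genotypes, in a list assembled with earlier results known. Their medians, -0.47 in KO and -0.55 in WT, were close to those of all genes. Trp53inp1 was lowest in both, at 1.09 FPKM in KO LPS against 9.91 in KO NT and 1.34 in WT LPS against 8.93 in WT NT. S1pr1, a receptor for sphingosine 1-phosphate that FoxO regulates through Klf2 in lymphocytes, followed at 3.58 against 16.8 FPKM in KO and 4.43 against 19.0 in WT. On the higher side, Cited2, a transcriptional coregulator, was at 255 FPKM in KO LPS against 57.3 in KO NT and 416 in WT LPS against 45.3 in WT NT, and Sod2, the mitochondrial superoxide dismutase, also a target of NF-kB, at 196 FPKM in KO LPS against 21.4 in KO NT and 183 in WT LPS against 26.4 in WT NT. Between KO LPS and WT LPS, 1 of 26 was past 2-fold, Tnfsf10 (3.19 and 7.43 FPKM), and without LPS none was.

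**Figure D4:**
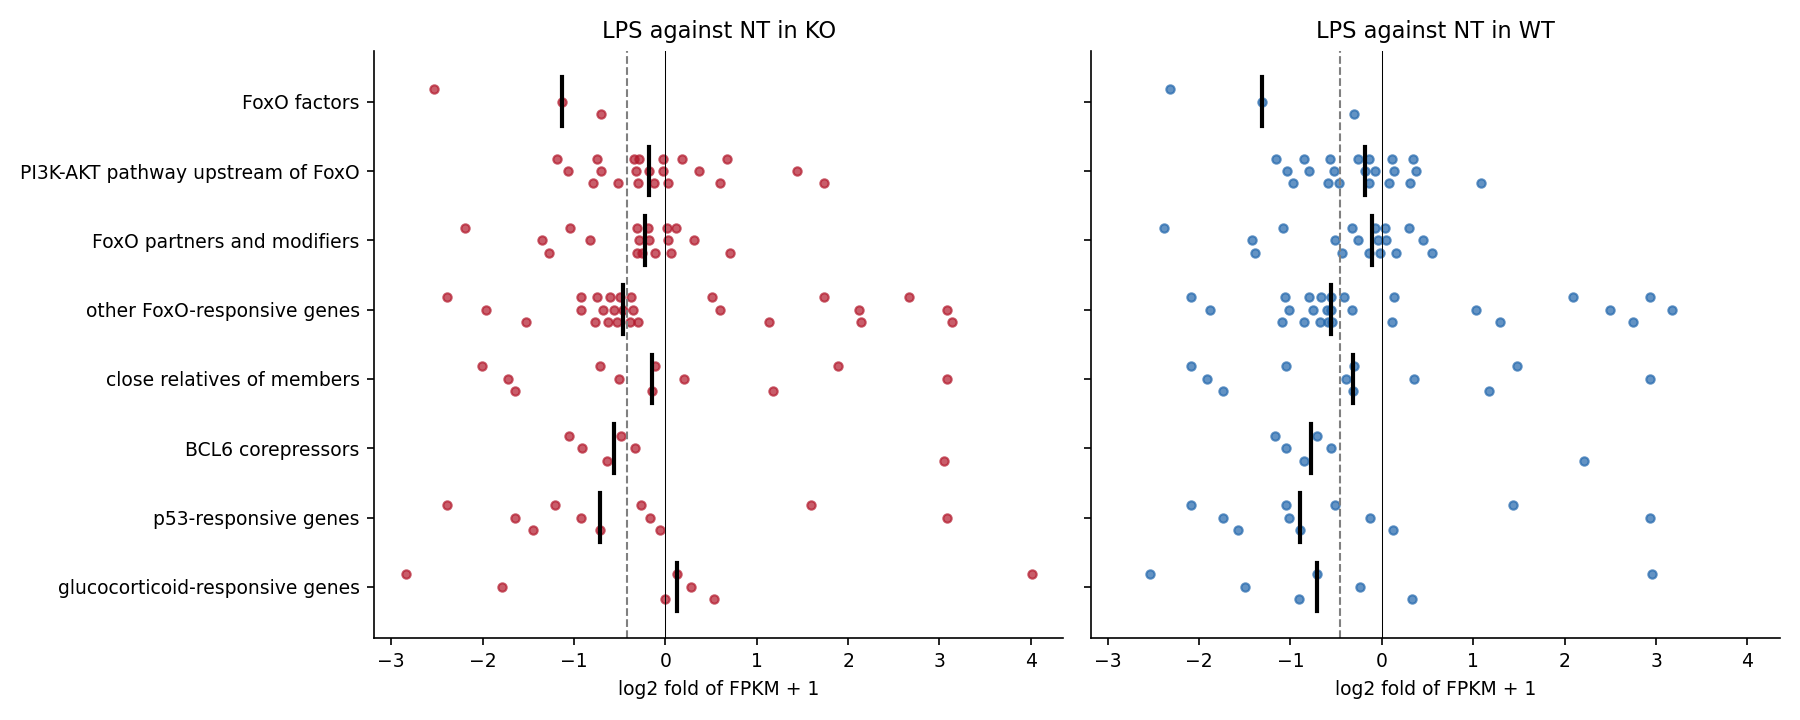
Log2 fold of FPKM + 1 with LPS over without LPS (horizontal axes) for each measured gene of 8 lists (rows), in KO (left) and WT (right); points are genes, black bars list medians and the dashed line the median of all genes. Foxo3 and Foxo4 lie left of the dashed line in both panels and Foxo1 in KO, while the other lists scatter to both sides.

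The p53-responsive and glucocorticoid-responsive lists, which include none of the genes of this set, held genes past 2-fold on both sides. Cdkn1a, Bbc3 and Trp53inp1 stand in the p53-responsive list and among the other FoxO-responsive genes, and are counted in both. Of 11 p53-responsive genes, 2 were at least 2-fold higher (Cdkn1a and Mdm2) and 4 lower in KO with LPS, and 2 higher and 5 lower in WT, with medians of -0.71 in KO and -0.89 in WT. Tsc22d3, a glucocorticoid-induced gene that FoxO3 also induces, was at 2.91 FPKM in KO LPS against 27.0 in KO NT and at 4.23 in WT LPS against 29.4 in WT NT, and Dusp1, a MAP kinase phosphatase, at 469 against 28.2 in KO and 247 against 30.8 in WT. Of the 7 glucocorticoid-responsive genes measured, 1 was higher and 2 lower past 2-fold in each genotype, with medians of 0.13 in KO and -0.71 in WT. Each of these medians was the fold of 1 gene with few counts. In KO it was Klf9, from 22 counts in KO LPS and 20 in KO NT. In WT it was Ddit4, from 3 counts in WT LPS and 11 in WT NT. The medians are thus no measure of a difference between the genotypes. All genes, at 6.61% higher and 15.1% lower in KO and 6.41% and 17.2% in WT, give the measure for both lists. Their medians were -0.42 in KO and -0.46 in WT. Whether lists of so few genes differ from these shares was not tested. Between KO LPS and WT LPS, Ddit4, an inhibitor of mTORC1 that was chosen after its values were seen, was the 1 past 2-fold, at 1.82 and 0.32 FPKM from 16 and 3 counts.

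Genes whose pattern over the 4 libraries was most like that of each gene were sought by Euclidean distance between profiles of log2(FPKM + 1), each centred on its own mean, among the 9203 genes that reached 50 expected counts in a library. Foxo3 and Txnip were each among the 3 nearest genes of the other, at a distance of 0.11, and shared Tifab as a further neighbour. Nearest to Txnip was Zfp710 (7.89 FPKM in KO LPS against 52.7 in KO NT, 8.31 in WT LPS against 48.1 in WT NT). Sesn1 was nearest to Rnf144b (distance 0.25), Cebpa (0.49) and Lpar5 (0.50). The genes nearest to Ccng2 were Il11 at 0.40, Rasgef1b at 0.46 and Cited2 at 0.46, and Sgk1 was nearest to Serpina3g at 0.15, followed by Mafk and Tnfsf10. Within the set, Ccng2 and Sesn1 were furthest apart, at 5.70. With 4 libraries such nearness is a description of 4 values.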

How the data were processed

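Expression was measured by RNA-seq on an Illumina HiSeq in 4 libraries of bone marrow-derived macrophages, 1 per group, with groups taken from the sample titles. The submitters' processing notes name Bowtie, RSEM and the mm10 genome. Versions, the strand setting and read filters are not given there. The expected count is the authors' deposited estimate of reads per gene, and the deposited FPKM is that count scaled for gene length and library size. The deposited gene length is a further column and can differ between libraries. For all 10 genes described, the deposited counts were whole numbers in every library. A gene not listed was set to 0. Of 15935 identifiers, 15897 matched RefSeq GRCm38.p6, the assembly that mm10 denotes. Overlapping exons came from GENCODE M21.

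Folds were taken on log2(FPKM + 1) where either library reached 1 FPKM, with 2-fold as the rule of size (Python 3.11.15, pandas 2.3.3, SciPy 1.17.1). Intervals of ratios were Clopper-Pearson intervals on counts rounded to whole numbers, rescaled to FPKM. The calculations were tested on simulated counts. The genes and lists were chosen with earlier results of these data known. From each list the text names examples among the 2 highest and 2 lowest folds of genes of at least 50 counts. List genes named beyond that rule were chosen after their values were seen. For each of the 10 genes the 3 most alike patterns were listed. Alternatives were pseudocounts of 0.1 and 5, other filters, 2 rescalings, CPM from the deposited counts, and rules of 1.5-fold and 3-fold. Some genes that the rule names are left out here.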

Additional observations from a re-analysis of the deposited data

Results flagged for a closer look

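For Ccng2 and Bcl6 the KO and WT libraries differed in opposite directions in the 2 states. Ccng2 was at a log2 fold of -0.89 for KO against WT with LPS and 0.58 without LPS, and Bcl6 at -0.20 with LPS and 0.20 without. The exact conditional interval of the difference excluded no change for both, but for Bcl6 the interval of the ratio with LPS alone included 1 (0.743 to 1.01). With 1 library per group the difference was not tested beyond counting error.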

How the results depend on the processing

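No paired analysis was possible because each group has 1 library. Leaving out a replicate was not possible for the same reason. Of the 9 counts of genes past 2-fold, those that moved by more than 1.5 times did so under other size rules or another scaling. With median-ratio scaling, the genes lower with LPS in KO numbered 3 in place of 5. With a 3-fold rule they also numbered 3, those higher with LPS in KO 0 in place of 1, and those lower in KO against WT with LPS 0 in place of 1. With a 1.5-fold rule, 2 were lower in KO against WT with LPS, and 1 was higher in KO against WT without LPS in place of 0. Genes whose LPS response differed by at least 2-fold between KO and WT numbered 2 under each of the 8 other settings run. With a pseudocount of 5, Foxo4 with LPS was at -0.74 in KO and -0.83 in WT, short of 2-fold. No fold past 2-fold changed sign under the pseudocounts, filters, rescalings or CPM, and with median-ratio scaling Cdkn1b with LPS (0.19 in KO and 0.09 in WT) and Foxo3 for KO against WT with LPS (-0.02) did. Over all genes, a pseudocount of 0.1 gave 874 higher and 2514 lower with LPS in KO, against 732 and 1668 with 1, and 815 and 2787 in WT, against 703 and 1887. A pseudocount of 5 left 505 higher and 399 lower with LPS in KO, and 485 and 452 in WT. For KO against WT the all-gene counts were 150 higher and 116 lower with LPS and 102 and 97 without. They became 343 and 198 with LPS and 264 and 198 without under a pseudocount of 0.1, 32 and 37, and 22 and 23, under 5, 65 and 62, and 40 and 43, with a filter of 5 FPKM, and 41 and 41, and 20 and 22, with at least 50 counts. On CPM, 232 were higher in KO against WT with LPS. A 1.5-fold rule gave 1136 higher and 4130 lower with LPS in KO and 4457 lower in WT, and a 3-fold rule 469 and 362 in KO, and 439 and 459 in WT. For KO against WT these rules gave 590 and 348 with LPS and 428 and 336 without, and 51 and 49 with LPS and 46 and 40 without. Depth limits Pik3ip1 and, with LPS, Foxo3, which rested on 18 counts in KO LPS and 19 in WT LPS.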
